A study of Mus musculus with 12 samples.

Results

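Interferon-stimulated genes are the genes that a cell turns on after interferons bind its receptors. The 41 genes described here were chosen by symbol as members of this class, in a list made with earlier results of these data known: Isg15, Isg20, Irf7, Irf9, Stat2, Ifit1, Ifit2, Ifit3, Ifi44, Ifi35, Ifih1, Dhx58, Oas1a, Oas2, Oas3, Oasl1, Oasl2, Mx1, Mx2, Rsad2, Usp18, Bst2, Xaf1, Cmpk2, Rtp4, Gbp2, Gbp3, Gbp5, Gbp7, Igtp, Irgm1, Iigp1, Zbp1, Parp9, Parp14, Dtx3l, Trim30a, Eif2ak2, Samd9l, Ifi204 and Cxcl10. They are 41 of the 21001 genes with a value in any library, and all 41 were among the 12314 genes that passed the expression filter of at least 1 FPKM (fragments mapped to a gene, relative to its length and the library size) in at least 3 libraries.

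The study sequenced RNA of marrow-derived stromal cells, labelled as bone marrow stem cells (BMSCs), from C57BL/6 mice with the genotype label "wide type", in 4 groups of 3 libraries. In all 4 groups the cells carried green fluorescent protein (GFP), and they were sorted and frozen before RNA was taken. The group NC is the primary culture of GFP-BMSCs. HOMING is GFP-BMSCs recovered from bone marrow after mice had been given GFP-BMSCs alone by the subcutaneous route. BM is GFP-BMSCs recovered from the marrow of tumour-bearing mice, which had been given GFP-BMSCs mixed with RFP-LLC, the Lewis lung carcinoma line marked with a red fluorescent protein. TUMOR is GFP-BMSCs recovered from the site where that mixture had been placed. HOMING against NC therefore compares cells found in marrow with cells in a dish. BM against HOMING compares marrow cells of mice given the mixture with those of mice given GFP-BMSCs alone. TUMOR against the others compares cells from the site of the mixture with the other groups. Markers of other cells also differed between these groups, as given below. The sources used here give neither the ages of the mice nor the gate of the sort, and they do not say whether the 3 libraries of a group came from separate animals or cultures, so the p-values measure the spread between these libraries, which may be technical.

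Interferons are secreted proteins. Type I interferons bind the receptor of Ifnar1 and Ifnar2, the kinases Jak1 and Tyk2 are activated, and Stat2 and Irf9 act in the complex ISGF3, which binds the interferon-stimulated response element (ISRE) in promoters. Interferon gamma binds Ifngr1 and Ifngr2, and its signal acts at the gamma-activated site (GAS). The proteins made in response block viral entry, translation and replication, and several of them, such as Irf7 and Stat2, carry the signal further. In marrow the pathway is known for its effects on blood stem cells and on the myeloid cells that the marrow makes.

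The ISRE is the sequence that the genes of this class are known to share, so it was looked for in the promoter table of RefSeq on build GRCm38.p6, in windows of 300 bases that run from 250 bases before a start site to 50 bases after it. Of the 41 genes, 30 had an entry, with 36 promoters, and 11 did not. The ISRE core was searched as GAAANNGAAA and the GAS core as TTCNNNGAA, on both strands. The ISRE core was present in 19 of the 36 promoters (52.8%), in 18 genes, and in 1131 of all 32851 promoters of that length (3.44%). The GAS core was present in 9 of the 36 (25%) and in 2726 of all promoters (8.3%). A match is a description of letters, and binding was not measured. The sequences below are shown because they hold the ISRE core, in capitals, beside genes with the different group patterns described later. Each is written 5′ to 3′ on the strand of its gene, and a core that lies on the other strand begins with TTTC. The first pair are the 200 bases before the start sites of Isg15, which was low in BM, and of Gbp2, which was high in BM. Isg15 has 3 overlapping copies of the core, between 78 and 57 bases before the start site, and Gbp2 has 1 copy, between 59 and 50 bases before it.
Isg15 (chr4:156200819-156201018, minus strand): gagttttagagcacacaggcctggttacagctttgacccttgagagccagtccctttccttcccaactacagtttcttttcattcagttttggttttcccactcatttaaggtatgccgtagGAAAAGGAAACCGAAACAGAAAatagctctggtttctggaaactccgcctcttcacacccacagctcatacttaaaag
Gbp2 (chr3:142620463-142620662, plus strand): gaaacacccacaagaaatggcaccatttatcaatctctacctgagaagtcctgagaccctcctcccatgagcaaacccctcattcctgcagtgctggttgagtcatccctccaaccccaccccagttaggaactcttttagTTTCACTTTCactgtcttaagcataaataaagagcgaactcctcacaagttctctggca
The next stretches are the core of each gene with its neighbouring bases, and Ifit1 and Ifit3 have 2 separate copies each.
Ifit1 (chr19:34640773-34640825, plus strand): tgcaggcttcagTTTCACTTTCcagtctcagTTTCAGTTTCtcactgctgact
Ifit3 (chr19:34583361-34583428, plus strand): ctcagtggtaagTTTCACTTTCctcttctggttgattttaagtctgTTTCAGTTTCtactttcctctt
Oas1a (chr5:120907526-120907557, minus strand): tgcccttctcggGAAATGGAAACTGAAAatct
Rsad2 (chr12:26456551-26456584, minus strand): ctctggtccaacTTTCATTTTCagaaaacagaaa
Bst2 (chr8:71537575-71537614, minus strand): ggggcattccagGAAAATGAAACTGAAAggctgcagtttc
Gbp3 (chr3:142559987-142560026, plus strand): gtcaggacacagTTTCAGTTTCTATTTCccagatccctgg
Irgm1 (chr11:48871423-48871462, minus strand): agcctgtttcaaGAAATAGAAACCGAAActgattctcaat
Cxcl10 (chr5:92349081-92349114, minus strand): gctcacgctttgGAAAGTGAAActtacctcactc
Genes with high and with low values in BM or TUMOR are both among those with a core. In the map of core positions most cores lie before the start site, and those of Ifih1 and Eif2ak2 and 1 of Trim30a lie after it.

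**Figure D1:**
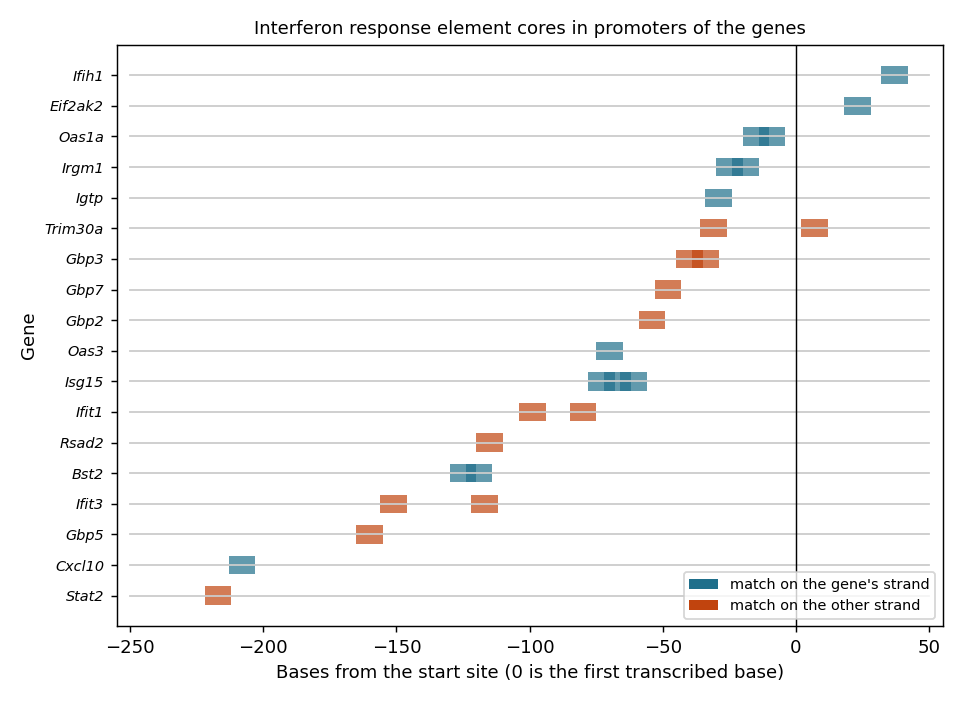
Positions of the ISRE core in the promoters of the 18 genes that hold it, with bases from the start site on the x axis and 1 gene a row; blue marks the gene's own strand and orange the other strand. Cores reach from 222 bases before the start site in Stat2 to 41 bases after it in Ifih1.

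Library totals were 43232145 to 46166519 expected counts, and libraries of 1 group correlated at no less than 0.992 across genes, those of different groups at no less than 0.895. The labelled stromal type was checked against 12 markers: their summed level was 702 to 780 FPKM in NC, 463 to 506 in HOMING, 551 to 580 in BM and 533 to 659 in TUMOR, with Col1a1 above 168 FPKM in each library, but Thy1, Nt5e and Lepr stayed under 1 FPKM in all 12. Markers of other cells differed between groups. The summed level of 8 pan-leukocyte markers was 2.11 to 3.13 FPKM in NC, 438 to 682 in HOMING, 31.5 to 32.3 in BM and 1.71 to 2.86 in TUMOR. Summed erythroid markers were 1920 to 3130 FPKM in HOMING and at most 2.98 in any library of the other groups. Summed neutrophil markers were 2660 to 3960 FPKM in HOMING, against 348 to 445 in NC, 411 to 435 in BM and 44.7 to 47.9 in TUMOR, where most of the level in NC and BM was Lcn2. Monocyte and macrophage markers summed to 13.5 to 19.3 FPKM in NC, 206 to 336 in HOMING, 55.2 to 56.3 in BM and 25.1 to 25.7 in TUMOR. Among the defining markers, Cd52 was at 0 in NC, Ccr2, C1qa and C1qb were at 0 in NC, and Elane, Mpo and Retnlg were at 0 in NC. Siglech and Klk1, markers of plasmacytoid dendritic cells, were at 0 in NC and BM, and Siglech reached 0.11 FPKM in HOMING. Ly6d of the same list was at 0 in NC and was called higher in HOMING against NC. Of the 3 of that list tested there, 1 was called higher and 1 lower. The 7 markers summed to 20.2 to 22.9 FPKM in NC and 19.1 to 20.3 in HOMING. The 8 dendritic cell markers summed to 1.65 to 1.97 FPKM in NC and 13.6 to 21.5 in HOMING. They summed to 2.14 to 2.46 FPKM in BM and 2.09 to 2.53 in TUMOR. Markers of B cells summed to at most 2.12 FPKM and those of T and NK cells to at most 1.33 FPKM in any HOMING library. The carcinoma and epithelial markers summed to 69.5 to 115 FPKM in TUMOR and to at most 6.95 FPKM elsewhere. In bulk RNA, fewer cells of a type and less RNA per cell cannot be told apart, and the part of these other cells in the results below was not tested.

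Interferon-stimulated genes were higher in HOMING than in NC nearly without exception. Of the 41, 40 rose in edgeR's quasi-likelihood test, where a call needs a change of 1 or more on the log2 scale, up or down, and an adjusted p below 0.05. Of all 12314 genes tested, 9.64% were called higher and 4.69% lower in this comparison. The median log2 fold change was 3.93 over the 41 genes and 0.01 over all genes. No gene of the 41 was called lower, and the count lower at an unadjusted p under 0.05 was also 0 in edgeR, DESeq2 and limma. The remaining gene, Ifi204, had a log2 fold change of -0.11 ± 0.12 (SE, adjusted p = 0.429 in edgeR) in HOMING against NC. The filter bears on this count: 19 of the 41 passed it through HOMING libraries alone, so that they had to be higher there. The other 22 passed in the 9 libraries of NC, BM and TUMOR by themselves, and 21 of those 22 rose, with a median log2 fold change of 2.36 and a range of -0.11 to 6.17. Summed over the 41 genes, the level was 122 to 134 FPKM in NC, 522 to 734 in HOMING, 144 to 149 in BM and 142 to 144 in TUMOR. Pan-leukocyte, neutrophil, monocyte and erythroid markers had their highest level in the same 3 libraries, as given above.

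**Figure D2:**
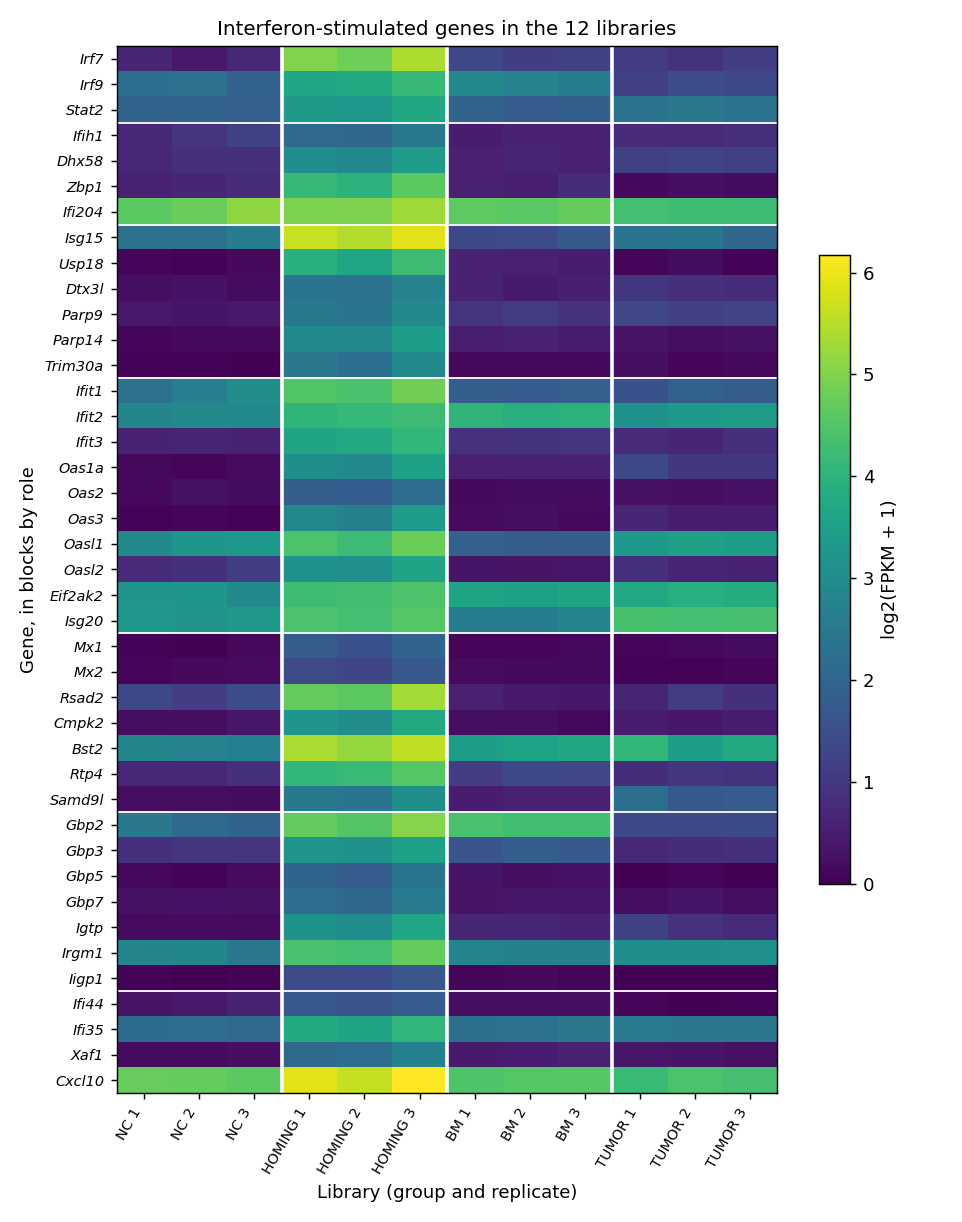
Level of each of the 41 genes in each of the 12 libraries, as log2(FPKM + 1) on the colour scale, with genes in rows by role and libraries in columns by group. The 3 HOMING columns are the brightest in nearly all rows, and HOMING replicate 3 is the brightest of all 12 in each of the 41. Outside HOMING, Ifi204 and Cxcl10 are bright in every group, Gbp2 and Ifit2 in BM and Isg20 in TUMOR.

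Each of the 41 genes had its highest group mean of FPKM in HOMING. In Ifi204 the summed counts had another order, with 11567.9 in NC and 11184.3 in HOMING. In 39 of the 41, the lowest HOMING library was above the highest of the other 9 libraries. Of all genes tested, 11.5% had that order. For the 19 genes that passed the filter through HOMING alone this order was nearly fixed, and of the other 22 it held in 20. The exceptions were Ifi204 and Isg20. Below HOMING the order differed from gene to gene: TUMOR was next in 18 genes, BM in 14 and NC in 9, and the lowest mean was that of NC in 19, TUMOR in 12 and BM in 10. The libraries of the second and the third group did not overlap in 30 genes, and those of the third and the fourth in 28. The share of all genes with such gaps was not counted, so these 2 counts are not read as a trait of the 41.

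The transcription factors come first, since they pass the signal on. Irf7, the factor that amplifies type I interferon production, was listed at 0.57, 0.35 and 0.63 FPKM in NC, 31.1, 26.9 and 41.2 in HOMING, 1.51, 1.21 and 1.28 in BM and 1.13, 0.88 and 1.19 in TUMOR. The HOMING libraries were far above all others, and the BM libraries were above those of NC and TUMOR with no overlap. Irf7 rose in BM against NC by a log2 fold change of 1.28 ± 0.25 (SE, adjusted p = 0.000621, edgeR) and stood at 0.92 ± 0.26 in TUMOR against NC, under the fold threshold. Tested on its highest transcript alone, Irf7 was at 0.94 in BM against NC and no longer called. Irf9, the DNA-binding subunit of ISGF3, was listed at 3.74, 3.91 and 2.81 FPKM in NC, 11.6, 12.3 and 16.6 in HOMING, 6.52, 5.71 and 5.01 in BM and 1.25, 1.74 and 1.53 in TUMOR. The 4 groups of Irf9 did not overlap, with TUMOR lowest. Irf9 fell in TUMOR against NC (log2 fold change -1.35 ± 0.18, adjusted p = 1.69e-05, edgeR) and in TUMOR against BM (-1.98 ± 0.17). Stat2, a subunit of ISGF3, rose in HOMING against NC by a log2 fold change of 1.67 ± 0.11 (SE) and was not called in BM against NC or in TUMOR against NC.

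The sensors bind nucleic acids, and some of them start interferon production. Ifih1 (MDA5) and Dhx58 (LGP2) bind double-stranded RNA, Zbp1 binds left-handed nucleic acids and can start cell death, and Ifi204 binds DNA. Zbp1 was listed at 0.47, 0.59 and 0.73 FPKM in NC, 16.2, 14.9 and 23.6 in HOMING, 0.49, 0.43 and 0.71 in BM and 0.12, 0.19 and 0.16 in TUMOR. BM and NC overlapped, and TUMOR was below both. The log2 fold change of Zbp1 was 4.85 ± 0.25 (SE) in HOMING against NC and -1.89 ± 0.38 (adjusted p = 0.000653, edgeR) in TUMOR against NC. Zbp1 and Ifih1 passed the filter through HOMING alone and had to be higher there. Dhx58 and Ifi204 passed without HOMING, and of these Dhx58 rose in HOMING against NC (3.25 ± 0.16). Ifih1 was lower in BM than in NC by a log2 fold change of -1.14 ± 0.24 (adjusted p = 0.0012, edgeR), with NC at 0.63, 0.95 and 1.28 FPKM and BM at 0.39, 0.50 and 0.47. That call ended without NC replicate 3 (log2 fold change -0.85). Dhx58 was higher in TUMOR than in BM, at 1.25, 1.35 and 1.25 FPKM against 0.47, 0.55 and 0.49, a log2 fold change of 1.31 ± 0.17 (adjusted p = 2.18e-05, edgeR).

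In Ifi204 the deposited transcripts moved in different directions. Its RefSeq transcript was listed at 6.85, 8.53 and 10.2 FPKM in NC and at 18.6, 18.4 and 25.3 in HOMING, with no overlap. A transcript model assembled by the authors for the same gene was at 3.05, 2.51 and 4.32 FPKM in NC and at 0.05, 0.00 and 0.00 in HOMING. Tested on its highest transcript alone, Ifi204 rose in HOMING against NC (log2 fold change 1.18 ± 0.16, SE, adjusted p = 4.68e-05, edgeR), while the sum over its transcripts gave the -0.11 above. Ifi204 lies in a family of similar genes, and how reads were shared among its models cannot be seen from the tables, so its value is uncertain. In Rsad2 an assembled model went from a mean of 0.327 FPKM in NC to 0.12 in HOMING while the RefSeq transcript, which holds most of the level, went from 1.15 to 29.1. The 41 genes had 74 transcripts in the tables, 24 genes had 1 transcript, and 18 transcripts in 9 genes were assembled models.

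The next group holds Isg15, a ubiquitin-like protein that is attached to other proteins, Usp18, the protease that removes it and also blocks the type I receptor, the partners Dtx3l and Parp9, the ADP-ribosyl transferase Parp14 and the ubiquitin ligase Trim30a. All 6 were called higher in HOMING against NC, but 4 of them, Usp18, Dtx3l, Parp14 and Trim30a, passed the filter through HOMING alone and had to be higher there. Isg15 and Parp9 passed without HOMING and rose by log2 fold changes of 3.42 ± 0.16 and 3.89 ± 0.20 (SE), where 9.64% of all genes were called higher. Isg15 was listed at 4.03, 3.96 and 5.07 FPKM in NC, 49.7, 43.2 and 58.0 in HOMING, 1.57, 1.66 and 2.29 in BM and 4.06, 4.24 and 3.07 in TUMOR. The BM libraries of Isg15 were below those of every other group, and TUMOR overlapped with NC. Isg15 fell in BM against NC by a log2 fold change of -1.32 ± 0.19 (SE, adjusted p = 6.66e-05, edgeR). Usp18 was at 0.06, 0.04 and 0.11 FPKM in NC, 14.0, 11.6 and 17.9 in HOMING, 0.53, 0.48 and 0.39 in BM and 0.08, 0.16 and 0.04 in TUMOR. The level of Usp18 was low in NC (17 counts over 3 libraries), and BM was above NC and TUMOR without overlap. Its log2 fold change was 7.50 ± 0.32 in HOMING against NC, the highest of the 41, and 2.59 ± 0.42 in BM against NC (adjusted p = 0.000144, edgeR).

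Within this group the other 4 genes moved the opposite way to Isg15 in BM. Dtx3l, Parp9, Parp14 and Trim30a all rose in BM against NC, by log2 fold changes of 1.20 ± 0.24, 1.48 ± 0.20, 2.09 ± 0.28 and 1.47 ± 0.48 (SE, adjusted p = 0.000727, 4.12e-05, 3.04e-05 and 0.0161, edgeR). All 4 also rose in TUMOR against NC, by 2.07 ± 0.23, 1.96 ± 0.20, 1.01 ± 0.31 and 1.54 ± 0.47. Of all genes, 7.93% were called higher in BM against NC and 9.75% in TUMOR against NC. Parp9 was listed at 0.35, 0.27 and 0.35 FPKM in NC, 4.65, 4.26 and 6.61 in HOMING, 0.91, 1.13 and 0.84 in BM and 1.50, 1.24 and 1.40 in TUMOR, so that its 4 groups did not overlap. The call of Parp14 in TUMOR ended without NC replicate 1 (0.78) or TUMOR replicate 1 (0.85), and with no expression filter (0.96). That of Trim30a ended without NC replicate 3 in BM against NC (adjusted p = 0.0554, edgeR) and without TUMOR replicate 1 in TUMOR against NC (adjusted p = 0.0685). The BM call of Trim30a also ended on its highest transcript alone (1.78 ± 0.99, SE, adjusted p = 0.141, edgeR).

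The largest group acts on translation and RNA. The Ifit proteins bind viral RNA and initiation factors, the Oas proteins make the activator of RNase L, Oasl1 and Oasl2 are their relatives, Eif2ak2 (PKR) phosphorylates an initiation factor, and Isg20 is an exonuclease. All 10 were called higher in HOMING against NC, where 9.64% of all genes were. Of the 10, 6 passed the filter without the HOMING libraries, and those 6 rose with a median log2 fold change of 1.29. In BM against NC, Oas1a, Oas3 and Ifit2 rose while Oasl1, Oasl2 and Ifit1 fell. Oasl1 was listed at 6.68, 8.37 and 8.84 FPKM in NC, 20.3, 17.9 and 26.5 in HOMING, 2.73, 2.52 and 2.54 in BM and 8.86, 10.53 and 10.03 in TUMOR. The 3 BM libraries were lowest, and the TUMOR libraries lay just above the NC range. Oasl1 fell in BM against NC by a log2 fold change of -1.70 ± 0.15 (adjusted p = 1.23e-06, edgeR), and Oasl2 also fell (-1.78 ± 0.27). Oas1a, in contrast, was at 0.10, 0.07 and 0.14 FPKM in NC, 7.44, 6.56 and 10.6 in HOMING, 0.47, 0.51 and 0.51 in BM and 1.51, 1.01 and 1.01 in TUMOR. Its 4 groups did not overlap, and its log2 fold change was 2.17 ± 0.35 in BM against NC and 3.36 ± 0.32 in TUMOR against NC. Oas3 rose by 1.33 ± 0.42 in BM and by 2.99 ± 0.35 in TUMOR against NC, and the BM call ended without NC replicate 3 (adjusted p = 0.0569, edgeR) or BM replicate 2 (adjusted p = 0.0516). Oas2, which passed the filter through HOMING alone, was higher in HOMING than in NC by 4.04 ± 0.22. It had -0.22 ± 0.25 in BM and 0.28 ± 0.24 in TUMOR.

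Ifit2 and its neighbours in the genome differed. Ifit2 was listed at 5.97, 6.43 and 6.78 FPKM in NC, 15.5, 16.4 and 17.8 in HOMING, 15.2, 13.9 and 14.5 in BM and 7.87, 9.18 and 9.45 in TUMOR. The BM libraries were close under those of HOMING. Ifit2 rose in BM against NC by a log2 fold change of 1.10 ± 0.08 (SE, adjusted p = 1.74e-07, edgeR), and BM against HOMING gave -0.16 ± 0.08. Ifit1 was at 4.03, 5.22 and 7.12 FPKM in NC, 21.6, 20.1 and 27.4 in HOMING, 2.65, 2.46 and 2.73 in BM and 1.93, 2.80 and 2.54 in TUMOR. Ifit1 fell in BM against NC (-1.15 ± 0.20) and in TUMOR against NC (-1.30 ± 0.20), and the BM call ended without NC replicate 3 (-0.89). Ifit3, with 0.50 to 0.55 FPKM in NC and 11.2 to 15.8 in HOMING, was at 0.83 to 0.90 in BM and 0.59 to 0.77 in TUMOR, and was not called in either against NC.

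Isg20 was the gene of the 41 with the highest level in TUMOR relative to HOMING. It was listed at 8.78, 8.23 and 8.86 FPKM in NC, 20.8, 19.0 and 22.5 in HOMING, 5.09, 5.17 and 5.87 in BM and 19.6, 19.0 and 19.4 in TUMOR. TUMOR overlapped with HOMING, and BM was lowest without overlap. Isg20 rose in TUMOR against NC by a log2 fold change of 1.01 ± 0.08 (adjusted p = 1.75e-07, edgeR) and had -0.78 ± 0.09 in BM against NC, under the fold threshold. The TUMOR value is at that threshold, and without NC replicate 2 it was 0.97, without TUMOR replicate 1 it was 0.98, and on the highest transcript alone 0.83, with no expression filter 0.96. In HOMING against NC the rise of Isg20 was 1.11 ± 0.08, and 0.88 on the highest transcript. Eif2ak2 rose by 1.19 ± 0.08 in HOMING against NC and had 0.40 ± 0.08 in BM and 0.61 ± 0.08 in TUMOR against NC.

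The antiviral effectors of membranes and nucleotides are the dynamin-like GTPases Mx1 and Mx2, Rsad2 (viperin), which makes a chain-terminating nucleotide, Cmpk2, a mitochondrial nucleotide kinase, Bst2 (tetherin), which holds budding virus at the cell surface, the chaperone Rtp4 and Samd9l. All 7 were called higher in HOMING against NC, where 9.64% of all genes were. Of the 7, 4 passed the filter without the HOMING libraries, and those 4 rose with a median log2 fold change of 4.53. Samd9l was listed at 0.17, 0.18 and 0.16 FPKM in NC, 4.65, 4.30 and 7.45 in HOMING, 0.40, 0.48 and 0.49 in BM and 3.70, 2.27 and 2.40 in TUMOR. TUMOR replicate 1 was the highest library outside HOMING, and the 4 groups did not overlap. Samd9l rose in TUMOR against NC by a log2 fold change of 3.90 ± 0.28 (SE, adjusted p = 7.17e-08, edgeR), the highest of the 41 in that comparison, and in TUMOR against BM by 2.58 ± 0.25. Rsad2 was listed at 1.51, 1.19 and 1.73 FPKM in NC, 25.2, 23.6 and 38.9 in HOMING, 0.49, 0.36 and 0.32 in BM and 0.55, 1.09 and 0.77 in TUMOR. Both groups from tumour-bearing mice were below NC, and BM was lowest. Rsad2 fell in BM against NC by a log2 fold change of -1.86 ± 0.27 (adjusted p = 6.62e-05, edgeR), and TUMOR against NC gave -0.90 ± 0.24. Its genomic neighbour Cmpk2 was not called in either, with -0.60 ± 0.37 and 0.60 ± 0.32.

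Bst2 was listed at 6.01, 5.65 and 5.30 FPKM in NC, 40.9, 35.3 and 47.1 in HOMING, 10.08, 11.01 and 11.82 in BM and 16.04, 10.03 and 12.51 in TUMOR. BM and TUMOR overlapped, and both were above NC. The log2 fold change of Bst2 was 1.06 ± 0.16 in TUMOR against NC, called, and 0.88 ± 0.16 in BM against NC, not called, and the TUMOR call ended without TUMOR replicate 1 (0.86). Most of the level of Mx1 was on assembled models, and its coding RefSeq transcript was at most 0.04 FPKM in any library. That of Mx2 was on a RefSeq transcript annotated as non-coding. Both genes are known to carry defective alleles in C57BL/6 mice. Mx1 was at 0.02 to 0.09 FPKM in NC and 1.93 to 2.89 in HOMING, and Mx2 at 0.06 to 0.14 and 1.45 to 2.20. In TUMOR against NC, Mx1 was called higher (1.01 ± 0.39) and Mx2 lower (-1.25 ± 0.41), at levels of at most 0.15 FPKM in each NC and TUMOR library. The call of Mx1 ended without NC replicate 1 (0.95), NC replicate 2 (0.67) or TUMOR replicate 3 (0.74), with no expression filter (0.96) and in a fit of NC and TUMOR alone (adjusted p = 0.0728, edgeR), and that of Mx2 ended without NC replicate 3 (-0.95).

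The guanylate-binding proteins (Gbp2, Gbp3, Gbp5 and Gbp7) and the immunity-related GTPases (Igtp, Irgm1 and Iigp1) attack the vacuoles of intracellular microbes and respond strongly to interferon gamma. All 7 were called higher in HOMING against NC, where 9.64% of all genes were. Of the 7, Gbp2, Gbp3 and Irgm1 passed the filter without the HOMING libraries, and those 3 rose with a median log2 fold change of 2.76. The other 4 passed through HOMING alone and had to be higher there. Of the 7, 5 rose in BM against NC: Gbp2, Gbp3, Gbp5, Igtp and Iigp1. In that comparison 7.93% of all genes were called higher. In TUMOR against BM, Gbp2, Gbp3, Gbp5 and Iigp1 fell, and the other 3 were not called. There 7.28% of all genes were called lower. Gbp2 was listed at 4.55, 3.32 and 2.93 FPKM in NC, 24.6, 22.1 and 32.0 in HOMING, 20.2, 18.8 and 18.7 in BM and 1.56, 1.57 and 1.62 in TUMOR. The BM libraries of Gbp2 were just under those of HOMING, and the TUMOR libraries were below all others. Gbp2 rose in BM against NC by a log2 fold change of 2.34 ± 0.15 (SE, adjusted p = 7.32e-08, edgeR), fell in TUMOR against NC (-1.30 ± 0.17, adjusted p = 1.71e-05) and fell in TUMOR against BM (-3.64 ± 0.16, adjusted p = 2.17e-09). Gbp3 had the same order at lower levels, with 0.79 to 0.94 FPKM in NC, 8.0 to 10.5 in HOMING, 2.10 to 2.63 in BM and 0.62 to 0.80 in TUMOR, and rose in BM against NC by 1.32 ± 0.15.

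Igtp and Irgm1 did not have that order. Igtp was listed at 0.14, 0.13 and 0.14 FPKM in NC, 7.99, 7.03 and 11.5 in HOMING, 0.57, 0.57 and 0.54 in BM and 1.32, 0.83 and 0.70 in TUMOR. TUMOR was above BM with no overlap, and Igtp rose by a log2 fold change of 1.93 ± 0.33 in BM and by 2.64 ± 0.32 in TUMOR against NC (adjusted p = 0.000254 and 6.99e-06, edgeR). Irgm1, a regulator of the other GTPases, was at 5.98, 6.17 and 4.47 FPKM in NC and at 5.53 to 5.85 in BM, and was not called in BM or TUMOR against NC. Gbp5 and Iigp1 rest on few reads outside HOMING, with 12 counts over the 3 TUMOR libraries for Gbp5 and 12 over the 3 NC libraries for Iigp1. Gbp5 was called higher in BM (1.25 ± 0.42) and lower in TUMOR (-1.65 ± 0.60) against NC. The first call ended without NC replicate 2 (0.93) or BM replicate 1 (1.09, adjusted p = 0.0637, edgeR), and the second without NC replicate 1 (-1.62), NC replicate 3 (-1.26), TUMOR replicate 1 (-1.35) or TUMOR replicate 3 (-1.32). The call of Iigp1 in BM against NC (1.42 ± 0.53) ended without NC replicate 2 (0.85), BM replicate 2 (1.24) or BM replicate 3 (1.45, adjusted p = 0.0568, edgeR). It also ended on the highest transcript alone (0.99, adjusted p = 0.338) and in a fit of NC and BM alone (adjusted p = 0.0793), and the TUMOR call of Gbp5 ended in a fit of NC and TUMOR alone (adjusted p = 0.0507, edgeR).

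Of the other 4 genes, Cxcl10, the chemokine that draws T cells, had the highest level of the 41 in HOMING. It was listed at 25.5, 25.2 and 23.4 FPKM in NC, 58.2, 48.4 and 71.0 in HOMING, 21.1, 22.1 and 22.8 in BM and 17.2, 20.4 and 19.4 in TUMOR. Cxcl10 was thus already present in culture, and it rose in HOMING against NC by a log2 fold change of 1.15 ± 0.11. Ifi44 was at 0.26, 0.35 and 0.51 FPKM in NC, 2.22, 2.0 and 2.46 in HOMING, 0.17, 0.20 and 0.18 in BM and 0.07, 0.03 and 0.04 in TUMOR, with no overlap between groups. Ifi44 fell in TUMOR against NC (log2 fold change -3.05 ± 0.34, adjusted p = 3.71e-06, edgeR), the largest fall of the 41 in that comparison. It also fell in BM against NC (-1.09 ± 0.27), a call that ended without NC replicate 3 (-0.78). Xaf1, a binder of the apoptosis inhibitor Xiap, rose in BM against NC by 1.41 ± 0.25 and had 0.78 ± 0.27 in TUMOR. Ifi35 rose in HOMING (1.80 ± 0.12) and had 0.13 ± 0.13 in BM and 0.27 ± 0.13 in TUMOR against NC.

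**Figure D3:**
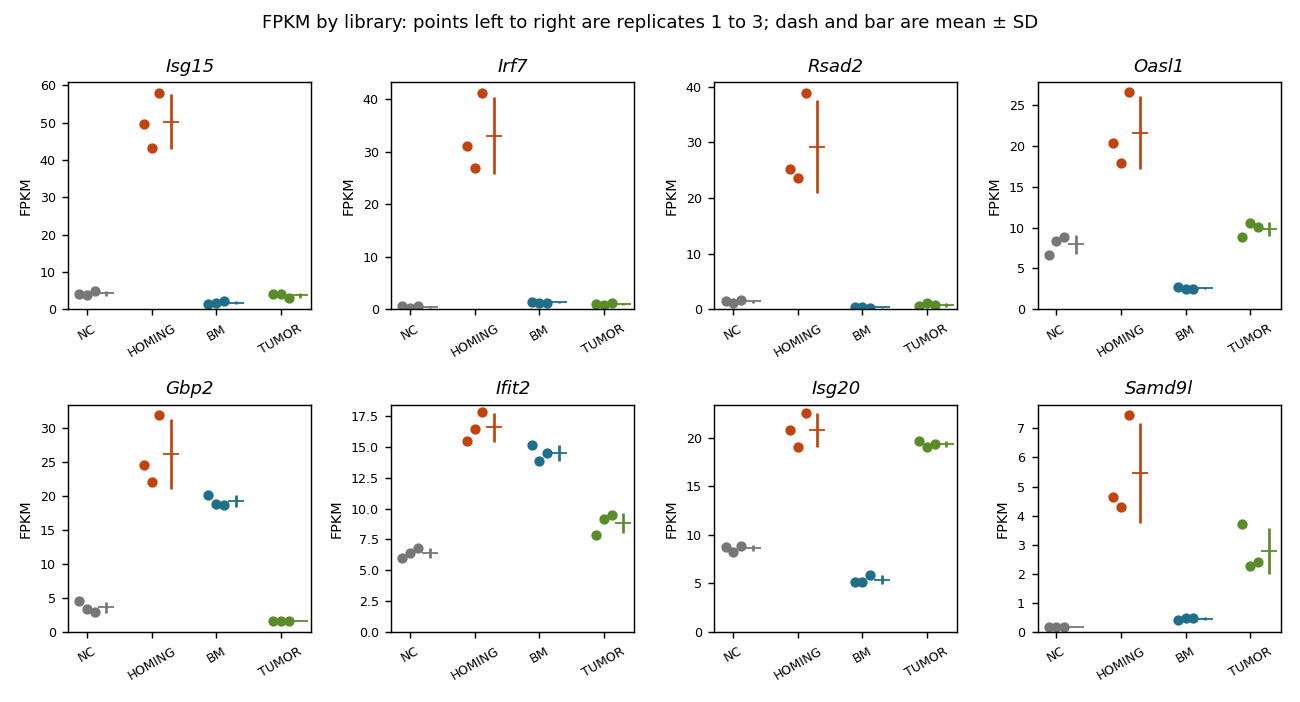
FPKM of 8 genes by library, with 1 point a library, 1 panel a gene, and the mean ± SD beside the points. Isg15, Irf7, Rsad2 and Oasl1 are high in HOMING, Gbp2 and Ifit2 are high in HOMING and BM, and Isg20 and Samd9l are high in HOMING and TUMOR.

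Over the 41 genes, the groups from tumour-bearing mice were mixed when set against culture. In BM against NC, 16 genes rose and 7 fell, with a median log2 fold change of 0.40, where 7.93% of all genes tested were called higher and 3.57% lower. In TUMOR against NC, 11 rose and 7 fell, with a median of 0.27, where 9.75% of all genes were called higher and 6.65% lower. Of the 22 that passed the filter without HOMING, 7 rose and 4 fell in BM against NC, with a median of 0.27. In TUMOR against NC, 5 of these 22 rose and 3 fell, with a median of 0.29. Of the calls over all genes in TUMOR against NC, 59.4% were higher, and 69.6% with scaling by library size alone. That scaling moved the median of all genes from 0.01 to 0.13 in TUMOR against NC and from 0.01 to 0.12 in HOMING against NC, and the medians of the 41 genes from 0.27 to 0.39 and from 3.93 to 4.04. The 41 genes' counts in BM and in TUMOR share the NC libraries. Dtx3l, Parp9, Parp14, Trim30a, Oas1a, Oas3, Samd9l and Igtp were called higher in both, Ifit1 and Ifi44 lower in both, Gbp2 and Gbp5 higher in BM and lower in TUMOR, and 12 genes were called in neither. In limma on log2(FPKM + 1), a scale that shrinks the changes of genes under 1 FPKM, 2 rose and 1 fell in BM against NC and 3 rose in TUMOR against NC. Leaving out NC replicate 3 took the 7 falls in BM to 4, and leaving out TUMOR replicate 1 took the 11 rises in TUMOR to 7. TUMOR replicate 1 was the highest of the 3 TUMOR libraries in 10 of the 11 genes that rose in TUMOR against NC, all but Mx1, and in 15 of the 41. The 11 were picked by their TUMOR values, and the share over all genes was not counted, so nothing is concluded from these counts. TUMOR replicate 1 also had the highest level of the epithelial keratin Krt8, at 93.8 FPKM against 48.1 and 51.9. The part of Krt8-expressing cells in these values was not tested.

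**Figure D4:**
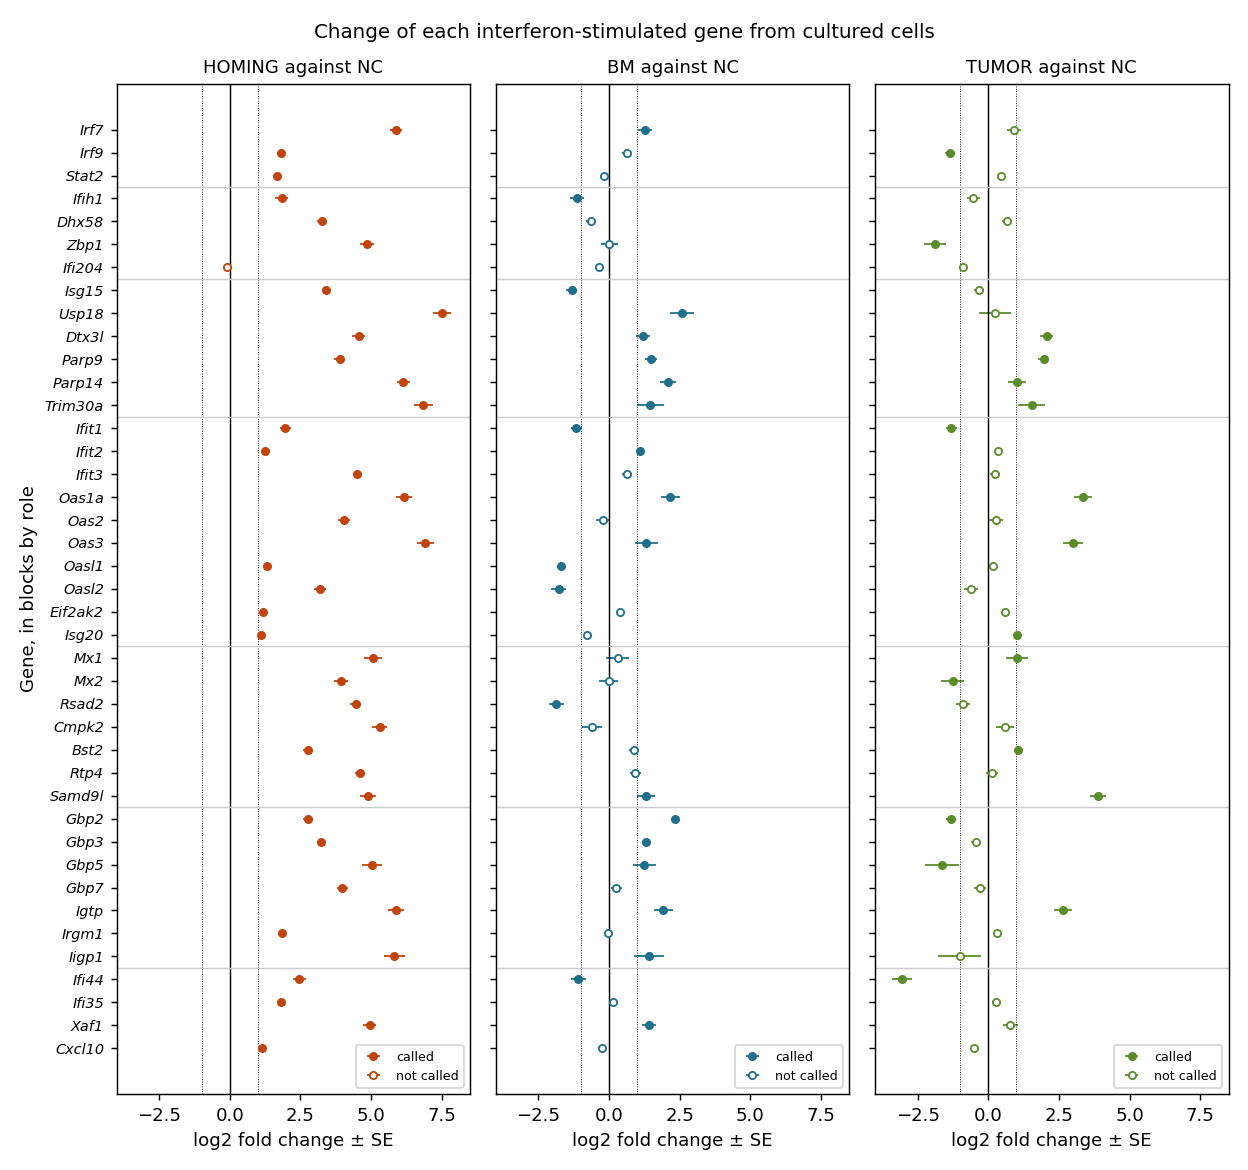
Log2 fold change ± SE of each of the 41 genes against NC in HOMING, BM and TUMOR, with filled points for calls and open points for genes not called; dotted lines mark the fold threshold. In HOMING 40 points are filled, all to the right, while BM has 16 filled to the right and 7 to the left, and TUMOR 11 and 7.

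Set against HOMING, both groups from tumour-bearing mice were low. In BM against HOMING, 37 of the 41 fell, with a median log2 fold change of -3.68, where 6.68% of all genes were called lower and 3.71% higher. By the filter, 19 of the 41 had to be lower than HOMING. Of the 22 that passed without HOMING, 18 fell, with a median of -1.89. The 4 that were not called were Gbp2 (-0.42 ± 0.13), Ifit2 (-0.16 ± 0.08), Eif2ak2 (-0.79 ± 0.08) and Ifi204 (-0.23 ± 0.12). In TUMOR against HOMING, 36 fell, with a median of -3.74, where 6.37% of all genes were called lower and 4.42% higher. Of the 22 that passed the filter without HOMING, 17 fell, with a median of -1.81. The 5 that were not called were Isg20 (-0.10 ± 0.08), Ifit2 (-0.92 ± 0.08), Eif2ak2 (-0.58 ± 0.07), Ifi204 (-0.79 ± 0.12) and Samd9l (-0.98 ± 0.21). These comparisons share the HOMING libraries with the one described first. The call of Oasl1 in TUMOR against HOMING ended without HOMING replicate 3 (log2 fold change -0.97). Samd9l was called lower in that comparison without HOMING replicate 1 (-1.08), HOMING replicate 2 (-1.13) or TUMOR replicate 1 (-1.25).

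TUMOR and BM differed in both directions. Of the 41, 8 were higher in TUMOR and 10 higher in BM, with a median log2 fold change of 0.13 in TUMOR against BM, where 6.95% of all genes were called higher and 7.28% lower. Higher in TUMOR were Dhx58, Oas1a, Oas3, Oasl1, Oasl2, Isg20, Cmpk2 and Samd9l, which includes 5 of the 10 genes acting on translation and RNA. Lower in TUMOR were Irf9, Zbp1, Usp18, Parp14, Mx2, Gbp2, Gbp3, Gbp5, Iigp1 and Ifi44, which includes 4 of the 7 GTPases. Of the 22 that passed the filter without HOMING, 5 were higher and 3 lower in TUMOR, with a median of 0.20. By size, Oasl1 (1.87 ± 0.15, adjusted p = 3.73e-07, edgeR) and Isg20 (1.79 ± 0.08, adjusted p = 2.95e-09) followed Samd9l on the higher side, and Gbp5 (-2.90 ± 0.52) and Iigp1 (-2.43 ± 0.61) followed Gbp2 on the lower side. Of these calls, those of Oas1a (0.96) and Oasl2 (0.95) ended without TUMOR replicate 1 and that of Cmpk2 (0.96) without BM replicate 3. The call of Parp14 ended without BM replicate 2 (-0.98) or TUMOR replicate 2 (-0.96), and that of Mx2 without BM replicate 1 (-1.12, adjusted p = 0.0521, edgeR) or TUMOR replicate 2 (-1.10, adjusted p = 0.0550). The call of Iigp1 ended on its highest transcript alone (-1.98, adjusted p = 0.0988, edgeR). Isg15 was at a log2 fold change of 1.00 ± 0.20 and was not called.

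The 3 HOMING libraries were not alike for these genes. HOMING replicate 3 had the highest level of all 12 libraries in 41 of 41 genes. The share of all genes with their highest level there was not counted, so that count is not read as a trait of the 41. The level of the 41 in HOMING replicate 3 was 1.12 to 1.67 times the mean of HOMING replicates 1 and 2, with a median of 1.39. Over the 11705 tested genes with at least 1 FPKM in those replicates the median of that ratio was 0.997. It was 0.944 over 9 stromal markers, with a range of 0.899 to 1.42, while the 8 pan-leukocyte markers ranged from 1.43 to 1.79 and the 6 erythroid markers from 1.56 to 1.87. The 12 neutrophil markers ranged from 1.24 to 1.68 and the 8 monocyte and macrophage markers from 1.42 to 1.77. The 4 megakaryocyte markers were lower, from 1.20 to 1.31 with a median of 1.23. The blood-cell markers given here are those called higher in HOMING against NC. Among the 41 genes, the 26 that were under 1 FPKM in NC had a median ratio of 1.43, and the 15 at or above 1 FPKM in NC had 1.31. The count of genes that rose in HOMING against NC was 40 without HOMING replicate 3, as it was with it.

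The level in BM was set on a scale from the NC mean (0%) to the HOMING mean (100%). On this scale the 41 genes ranged from -80.7% in Ifi204 to 79.8% in Ifit2, with a median of 1.6%, and 38 of them were below 25%. For the 19 that passed the filter through HOMING alone, a place far under HOMING was nearly fixed. The shares of all genes on this scale were not counted, so counts on it are not read as a trait of the 41. The percentages of Ifi204 rest on a small difference, as its means were 28.0 FPKM in NC and 32.8 in HOMING with overlapping libraries. The genes above 50% were Ifit2 (79.8%) and Gbp2 (69.2%). Of the markers, only those called higher in HOMING against NC were set on this scale. The 8 pan-leukocyte markers lay between 3.6% and 14.8%, the 12 neutrophil markers between -2.1% and 8.3% and the 8 monocyte and macrophage markers between 1.3% and 45.5%. The 6 erythroid markers lay between 0.0% and 0.2% and the 4 megakaryocyte markers between 4.6% and 14.7%. In TUMOR the 41 genes had a median of 1.6%, with a range from -202.8% in Ifi204 to 88.0% in Isg20, 16 genes below 0% and Samd9l at 49.5%. There the pan-leukocyte markers lay between -1.2% and 0.3%, the neutrophil markers between -47.3% and 5.8% and the monocyte and macrophage markers between -0.3% and 17.0%. The erythroid markers lay between -0.3% and 0.4% and the megakaryocyte markers between 0.4% and 9.6%. These are levels of the same libraries, and what part leukocytes have in them was not tested.

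**Figure D5:**
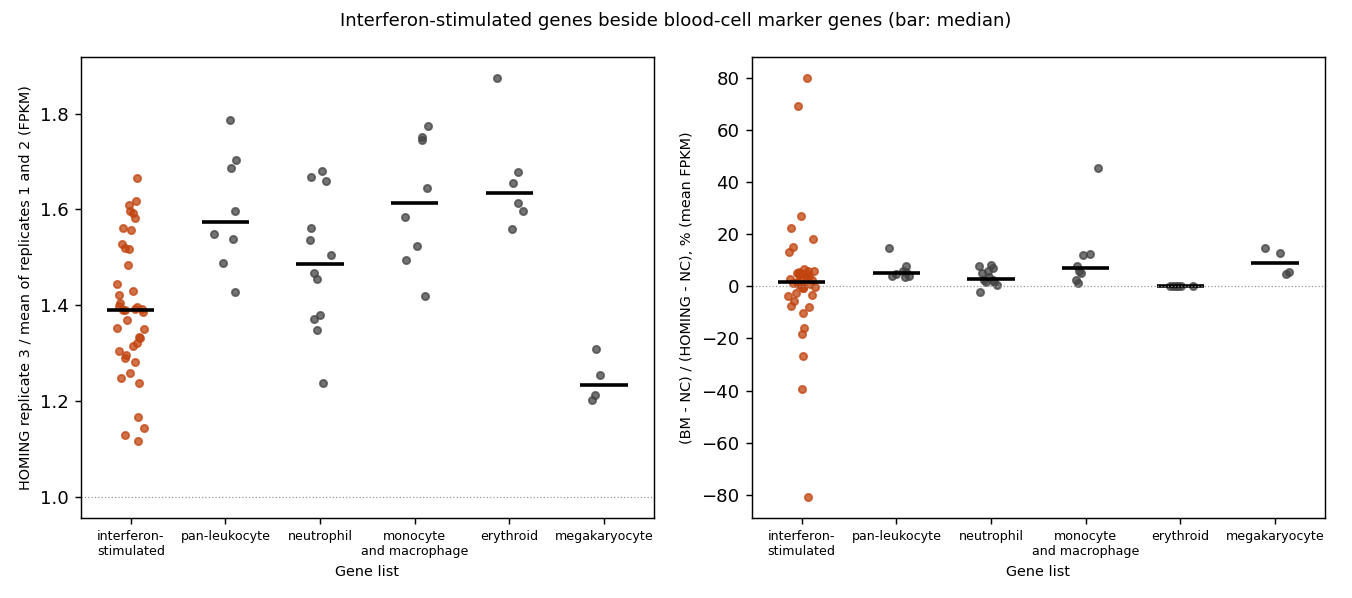
Left, the ratio of HOMING replicate 3 to the mean of HOMING replicates 1 and 2; right, the BM level in percent of the way from NC to HOMING; 1 point a gene, the bar is the median, and lists are on the x axis. The 41 interferon-stimulated genes have a median ratio of 1.39, below the pan-leukocyte median of 1.57 and above the megakaryocyte median of 1.23. Ifit2 and Gbp2 stand above 50% on the right. Of the markers, only those called higher in HOMING against NC are shown.

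Other genes of the pathway were read from further lists. The 10 interferon ligand genes did not pass the expression filter and were not tested. Their highest value was that of Ifng, at 0.68 ± 0.20 FPKM (SD, n = 3) in HOMING and 0.01 ± 0.01 in NC, and it was listed at 0 in BM and TUMOR. Ifnb1 was at 0.26 ± 0.15 FPKM (SD, n = 3) in HOMING and at most 0.01 on average elsewhere.

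Of 13 nucleic acid sensors and adaptors tested, 6 rose in HOMING against NC, 4 in BM against NC and 4 in TUMOR against NC, where 9.64%, 7.93% and 9.75% of all genes tested were called higher. Of the 10 that passed the filter without HOMING, 3 rose in HOMING against NC. Ikbke, a kinase that activates Irf3 and Irf7, was at 0.69 ± 0.07 FPKM (SD, n = 3) in NC, 22.8 ± 6.30 in HOMING, 4.03 ± 0.09 in BM and 2.04 ± 0.43 in TUMOR. Aim2, a DNA sensor of the inflammasome, had its highest level in TUMOR, at 3.73 ± 1.18 FPKM (SD, n = 3) against 0.20 ± 0.06 in NC, 1.05 ± 0.23 in HOMING and 1.54 ± 0.11 in BM. The RNA sensor Ddx58 (RIG-I) rose in HOMING against NC by a log2 fold change of 2.13 ± 0.10 (SE) and had 0.94 ± 0.10 in BM. Of 5 further interferon regulatory factors tested, Irf8 and Irf5 rose in HOMING, by 6.36 ± 0.44 and 1.90 ± 0.15. Irf8, also a factor of the monocyte lineage, passed the filter through HOMING alone. Of 10 brakes on the pathway, Ptpn6, Trex1, Socs1 and Socs3 rose in HOMING. Ptpn6, a phosphatase found mainly in blood cells, went from 1.74 ± 0.18 FPKM (SD, n = 3) in NC to 33.8 ± 9.90 in HOMING. Socs1, an inhibitor of Jak kinases, rose in TUMOR against NC by 1.07 ± 0.11 and had 0.12 ± 0.12 in BM, while Socs3 rose in BM by 1.24 ± 0.14 and had 0.14 ± 0.14 in TUMOR.

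Of 51 other interferon-induced genes tested, 38 were called higher in HOMING against NC, where 9.64% of all genes were. Of these 51, 26 passed the filter through HOMING alone and had to be higher there. The other 25 had 12 rises, with a median log2 fold change of 0.80. Of the 51, 12 rose and 3 fell in BM against NC, where 7.93% of all genes were called higher and 3.57% lower. In TUMOR against NC 12 rose and 3 fell, where 9.75% and 6.65% of all genes did, and in TUMOR against BM 9 rose and 7 fell, where 6.95% and 7.28% did. The ones with the smallest adjusted p in HOMING against NC included Ly6c2, a surface protein of monocytes, and Cd274, the checkpoint ligand PD-L1. Ly6c2 was at 0.58 ± 0.33 FPKM (SD, n = 3) in NC, 83.2 ± 18.7 in HOMING, 7.96 ± 0.46 in BM and 0.66 ± 0.16 in TUMOR. Cd274 was at 0.45 ± 0.12, 20.6 ± 4.84, 0.99 ± 0.12 and 0.72 ± 0.09 FPKM (SD, n = 3) in these groups. Sp100, a nuclear body protein, was at 0.01 ± 0.01 FPKM (SD, n = 3) in NC, 9.08 ± 2.94 in HOMING, 0.25 ± 0.02 in BM and 0.67 ± 0.24 in TUMOR. Cd274 and Sp100 passed the filter through HOMING alone and had to be higher there, while Ly6c2 passed without HOMING.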

How the data were processed

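Groups were taken from the sample titles of the 12 libraries. Reads were mapped with Bowtie 0.12.2 to genome build mm8, per the submitters' processing notes, and the sources used here name no counting program. In the deposited tables, which list 1 row per transcript, the authors give expected counts (estimated reads, not normalized) and FPKM (scaled by the authors to length and mapped fragments). The smallest FPKM in them is 0.01, and a transcript without a row was taken as 0. Both values were summed per gene, and 19629 of 19679 Entrez numbers matched a symbol.

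Summed expected counts were rounded and scaled by TMM. A quasi-likelihood model of the 4 groups was fitted over all 12 libraries in edgeR 4.0.16 under R 4.3.3, with 8 residual degrees of freedom. Tests were two-sided, with Benjamini-Hochberg adjustment over the 12314 genes that reached 1 FPKM in 3 or more libraries. Calls needed an adjusted p below 0.05 and a change of 1 or more on the log2 scale, up or down. SE is the log2 fold change divided by the square root of F. The edgeR step was tested on simulated data. Totals of 43232145 to 46166519 counts a library set the precision, and genes with few reads are given with their counts.

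The members, the pathway and marker lists and the tests were chosen with earlier results of these data known. All 41 members may be named, and of each pathway list up to 6 genes, by smallest adjusted p in HOMING against NC, else by highest mean FPKM. The result of 1 pathway list is not reported here. Alternatives were DESeq2 1.42.0, limma 3.58.1 on log2(FPKM + 1) and on log2(FPKM + 0.1), median-ratio and library-size scaling, no expression filter, the highest transcript, the compared groups alone, the replicate number as a block, calls without a fold threshold, and leaving out each library. Promoter sequences came from RefSeq on GRCm38.p6, and no coordinates of the authors' build are given. Python 3.11.15, pandas 2.3.3 and matplotlib 3.10.9 were used.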

Additional observations from a re-analysis of the deposited data

How the results depend on the processing

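The counts for HOMING against NC (40 higher), BM against HOMING (37 lower) and TUMOR against HOMING (36 lower) stayed within 1.5 times under all alternatives run, and leaving out each library gave 40, 37 and 35 to 37. The counts against NC in BM and TUMOR, and in TUMOR against BM, depend on the scale: 26 of the 41 genes were under 1 FPKM in NC, where a pseudocount shrinks fold changes. With limma on log2(FPKM + 1), BM against NC had 2 higher and 1 lower, TUMOR against NC 3 higher and 0 lower (8 lower at an unadjusted p under 0.05), and TUMOR against BM 3 higher and 2 lower, with 626, 1301 and 930 of all genes called. With log2(FPKM + 0.1) the falls were 4 in BM against NC and 6 in TUMOR against BM. Leaving out each library gave 14 to 16 higher and 4 to 7 lower in BM against NC, 7 to 12 higher and 5 to 9 lower in TUMOR against NC, and 7 to 9 higher and 8 to 10 lower in TUMOR against BM. With no minimum fold change, TUMOR against NC had 18 higher and 12 lower and TUMOR against BM 17 higher; over all genes 8617, 8198, 9068, 7158, 6776 and 8576 were called in HOMING, BM and TUMOR against NC, BM and TUMOR against HOMING and TUMOR against BM, and with no expression filter 3302, 2537, 3420, 2581, 2702 and 3162, against 1765, 1416, 2019, 1280, 1329 and 1752. On its highest transcript alone, Ifi204 was called higher in HOMING against NC (log2 fold change 1.18). Of 3924 alternative values of the single genes, 3716 kept direction and side of the threshold, 112 lost the call, 64 gained it, 31 changed sign with neither called and 1 reversed. Deviations from the group mean correlated at -0.12 to 0.224 between same-numbered libraries of different groups and at -0.154 to 0.199 between differently numbered ones. These values cannot show whether libraries share an animal. With the replicate block, 9 genes were higher in TUMOR against BM in place of 8, Isg15 being added at a log2 fold change of 1.01. The block changed no other call of the 41. Depth limits genes such as Iigp1, Gbp5, Mx2, Trim30a, Ifi44 and Usp18, with 6 to 20 counts over the 3 libraries of a group.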
